A study of Mus musculus with 18 samples.

Results

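The globin genes encode the protein chains of hemoglobin, and 9 of them were followed here through 18 mouse spleen libraries. They were picked by gene symbol from a table of 19320 genes, after their large and uneven share of these same libraries had been seen, so their levels are a description. The 9 are the adult alpha-globin genes Hba-a1 and Hba-a2, the adult beta-globin genes Hbb-b1, Hbb-b2, Hbb-bs and Hbb-bt, and the embryonic genes Hba-x, Hbb-y and Hbb-bh1. Levels are in RPKM, the reads of a gene divided by its length and by the mapped reads of the library, so levels of different genes can be set side by side per length.

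All animals were ICR mice, an outbred stock, and their spleens were taken at 10 weeks of age, with 3 libraries a group. Con mice ate a regular diet and got saline. A10 mice received alginate oligosaccharide (AOS), short sugar chains cut from algal alginate, at a dose of 10 mg per kg. STZ mice were given streptozotocin, a toxin of the insulin-producing cells that makes mice diabetic, and STZ-A10 mice received it together with AOS. Con-FMT and A10-FMT mice also received STZ and were then dosed by mouth with gut microbiota (FMT, fecal microbiota transplantation) of control donors or of donors given AOS at 10 mg per kg. Donor material was pooled before transfer, so recipients of a group share 1 inoculum. The study's methods describe male mice in 4 of these groups, and name as A10 the male donors of microbiota. Those donors were 3 weeks old at the start, were dosed for 3 weeks and were killed 3 days later. By that schedule they were younger than the 10 weeks given for the A10 spleens. The sources used here describe neither these A10 animals nor the STZ-A10 animals beyond their labels. The labels give the libraries of a group as separate samples and name neither cultures, litters nor batches, so p-values measure the spread between these samples.

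Each hemoglobin molecule joins a pair of alpha-type chains to a pair of beta-type chains, each holding a heme. In the mouse the alpha-type genes lie together on chromosome 11 and the beta-type genes on chromosome 7. Embryonic red cells use Hba-x (zeta chain), Hbb-y (epsilon-y chain) and Hbb-bh1 (beta-h1 chain), and later red cells use the adult genes. Mouse stocks differ at the adult beta genes. The haplotype called single carries the near-identical pair Hbb-bs and Hbb-bt and is that of the C57BL/6 reference genome. The haplotype called diffuse carries Hbb-b1 (beta major) and Hbb-b2 (beta minor) in their place. The spleen of the mouse makes red cells as well as clearing old ones, so its RNA holds globin messages from red cell precursors. The beta-globin haplotypes of these animals are not given in the labels and were not tested.

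The sequences of the duplicated adult genes come first, because they limit what a level of a single copy can mean. Hba-a1 lies at chr11:32283511-32284465 and Hba-a2 at chr11:32296489-32297298, both on the plus strand with 3 exons (GRCm38, GENCODE M21). Their coding sequences have 426 bases and differ at 1 position, C381T, counted from the A of the start codon and read from Hba-a1 to Hba-a2. Hbb-bs lies at chr7:103826534-103828096 and Hbb-bt at chr7:103812524-103813996, both on the minus strand with 3 exons. Their coding sequences have 441 bases and also differ at 1 position, C417T, read from Hbb-bs to Hbb-bt. The stretches around the differing base, coding positions 361 to 401 of the alpha pair and 397 to 437 of the beta pair, are printed 5′ to 3′ on the sense strand with that base in capitals.
Hba-a1: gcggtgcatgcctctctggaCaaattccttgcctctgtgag
Hba-a2: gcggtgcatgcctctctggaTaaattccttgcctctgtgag
Hbb-bs: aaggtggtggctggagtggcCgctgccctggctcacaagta
Hbb-bt: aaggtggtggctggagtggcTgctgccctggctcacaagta

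A read is assigned to a gene by its letters. Cut into windows of 50 bases, 87.8% of the coding windows of Hba-a1 occur letter for letter in Hba-a2. Over whole transcripts, 86.9% of the Hba-a2 windows occur in Hba-a1 and 67.5% of the Hba-a1 windows in Hba-a2. For Hbb-bs and Hbb-bt 93.6% of coding windows were shared, and 65.8% and 58.3% of the windows of their transcripts. The study's methods allowed mismatches in an alignment, so exact windows understate the reads that fit both copies. The split of reads within either pair is therefore uncertain, and the sum of a pair is safer than its parts. By exact match Hba-x shared 0 windows with Hba-a1, and Hbb-y and Hbb-bh1 shared 0 with Hbb-bs. Coding identity was 61.7% between Hba-x and Hba-a1, 74.4% between Hbb-y and Hbb-bs, 73.9% between Hbb-bh1 and Hbb-bs, and 76.4% between Hbb-y and Hbb-bh1. Hbb-b1 and Hbb-b2 are named only, so windows that they share with Hbb-bs or Hbb-bt were not measured.

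An adult and an embryonic promoter are shown for the boxes that they share and a string that only the adult promoter holds. The 120 bases before the RefSeq start (GRCm38.p6) are given for Hba-a2 (chr11:32296372-32296491, plus strand) and Hbb-y (chr7:103853208-103853327, minus strand). The capitals mark the CACCC and CCAAT boxes, which come in the opposite order in these promoters, and ATATAA, a form of the TATA box. The Hbb-y window lacks that exact string, although the window of the embryonic gene Hba-x holds it. TATA boxes spelled otherwise were not searched for.
Hba-a2: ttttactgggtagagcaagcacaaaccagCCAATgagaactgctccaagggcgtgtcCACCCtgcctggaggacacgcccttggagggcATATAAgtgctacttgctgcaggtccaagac
Hbb-y: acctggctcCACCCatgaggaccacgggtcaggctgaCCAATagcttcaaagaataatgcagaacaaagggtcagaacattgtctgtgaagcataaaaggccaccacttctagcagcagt

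RefSeq gave a promoter for 6 of the 9 genes (Hba-a1, Hba-a2, Hbb-bs, Hbb-bt, Hba-x and Hbb-y). Searched on both strands, CACCC stood in 6 of 6, against 31.7% of 32851 promoters of the same length. CCAAT stood in 5, all but Hba-x, against 21.3%. ATATAA stood in 5, all but Hbb-y, against 4.47%, and AGATAA in 0, against 4.36%. The windows of Hba-a1 and Hba-a2 were identical over 117 bases at a shift of 3, whereas those of Hbb-bs and Hbb-bt matched at 73.9% of 119 bases.

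The summed RPKM of a library ran from 673221 to 884539. No read counts were used, so depth is unknown and no counting interval is given. Erythroid markers were high in all 18 libraries, with Slc4a1 (the band 3 anion exchanger of the red cell membrane) between 195 and 1127 RPKM. Some libraries stood apart. A10-FMT replicate 3 had the lowest summed level of 5 B cell markers, 519 RPKM against 1259 or more elsewhere, and of 5 T cell markers, 42.0 against 108 or more. Con replicate 1 had 14602 RPKM of 8 neutrophil markers, A10-FMT replicate 2 had 13734 RPKM of 6 exocrine pancreas markers and Con replicate 2 had 251 RPKM of 4 testis germ cell markers.

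**Figure D1:**
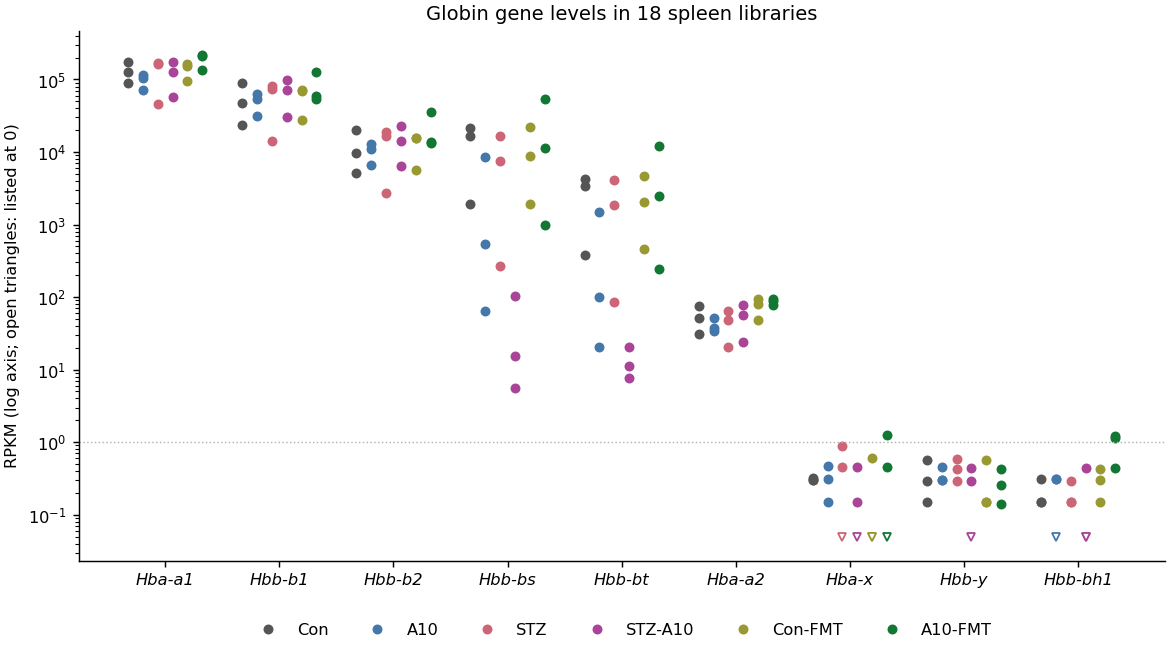
RPKM (log axis) of the 9 globin genes in each of 18 spleen libraries, colored by group, with open triangles at the foot for values listed at 0 and a dotted line at 1 RPKM. Hba-a1 lies at 46033 RPKM or more in every library, Hbb-bs and Hbb-bt spread over several powers of 10, and the 3 embryonic genes stay at or below 1.24 RPKM.

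Hba-a1 was the most abundant transcript of the table in 18 of 18 libraries. In the Con libraries it stood at 172791, 125311 and 90422 RPKM, and in A10 at 104664, 115413 and 71652. STZ gave 46033, 162036 and 171344, and STZ-A10 gave 57613, 125376 and 172910. Con-FMT gave 161084, 151052 and 96726, and A10-FMT gave 209675, 136753 and 215329. The lowest values were those of STZ replicate 1 and STZ-A10 replicate 1, the highest those of A10-FMT replicates 1 and 3. By group mean the order was A10-FMT (187252 ± 43825, SD, n = 3), Con-FMT (136287 ± 34626), Con (129508 ± 41345), STZ (126471 ± 69817), STZ-A10 (118633 ± 57943) and A10 (97243 ± 22805). Each group overlapped its neighbor in that order.

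Its copy Hba-a2 was listed far lower, although most of its sequence is shared with Hba-a1. It stood at 74.4, 51.7 and 30.5 RPKM in Con, 37.8, 51.7 and 34.5 in A10, and 20.2, 47.9 and 65.1 in STZ. In STZ-A10 it was 24.2, 56.8 and 77.3, in Con-FMT 94.5, 81.2 and 48.4, and in A10-FMT 93.1, 89.3 and 76.8. The ratio of Hba-a1 to Hba-a2 ran from 1532 in A10-FMT replicate 2 to 3382 in STZ replicate 2. Hba-a2 held a mean of 0.0271% of the adult globin RPKM. The A10-FMT libraries lay above every STZ, Con and A10 library and overlapped those of Con-FMT and STZ-A10.

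Hbb-b1, the major beta-globin of the diffuse haplotype, held the second or the third rank in every library. It was 90346, 47518 and 23598 RPKM in Con, 53968, 62279 and 31578 in A10, and 14269, 81754 and 74202 in STZ. STZ-A10 had 30845, 70814 and 97522, Con-FMT 68551, 72529 and 27334, and A10-FMT 54445, 58727 and 124931. The range across libraries was 8.76-fold, against 4.68-fold for Hba-a1. Hbb-b2, the minor partner, ran from 2727 RPKM in STZ replicate 1 to 36076 in A10-FMT replicate 3. The ratio of Hbb-b1 to Hbb-b2 was 4.58 ± 0.451 (SD, n = 18), with a lowest value of 3.46 in A10-FMT replicate 3 and a highest of 5.23 in STZ replicate 1. All 18 libraries thus listed Hbb-b1 and Hbb-b2 at 2727 RPKM or more. Their sequence overlap with Hbb-bs and Hbb-bt was not measured, so these levels do not show which haplotype an animal carried.

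Hbb-bs, the first gene of the single haplotype, behaved otherwise. It was 1914, 16795 and 21592 RPKM in Con, 546, 63.4 and 8414 in A10, and 7588, 267 and 16417 in STZ. In STZ-A10 it was 102, 15.3 and 5.61, in Con-FMT 8862, 1914 and 21885, and in A10-FMT 54525, 11243 and 976. The highest library held 9719 times the lowest. All 3 STZ-A10 libraries were below all STZ, Con, Con-FMT and A10-FMT libraries, whereas A10 replicate 2, at 63.4, fell among them. Hbb-bt followed it. Hbb-bt was 385, 3393 and 4220 RPKM in Con, 99.8, 20.2 and 1483 in A10, and 1859, 84.2 and 4065 in STZ. The STZ-A10 libraries had 20.8, 7.67 and 11.3, Con-FMT 2022, 454 and 4636, and A10-FMT 12152, 2499 and 241. In the 9 libraries where Hbb-bs and Hbb-bt together made at least 10% of adult beta-globin RPKM, the ratio of Hbb-bs to Hbb-bt lay between 4.04 and 5.67. In the other 9 it ran from 0.495 to 5.47, and Hbb-bt exceeded Hbb-bs in STZ-A10 replicate 3.

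**Figure D2:**
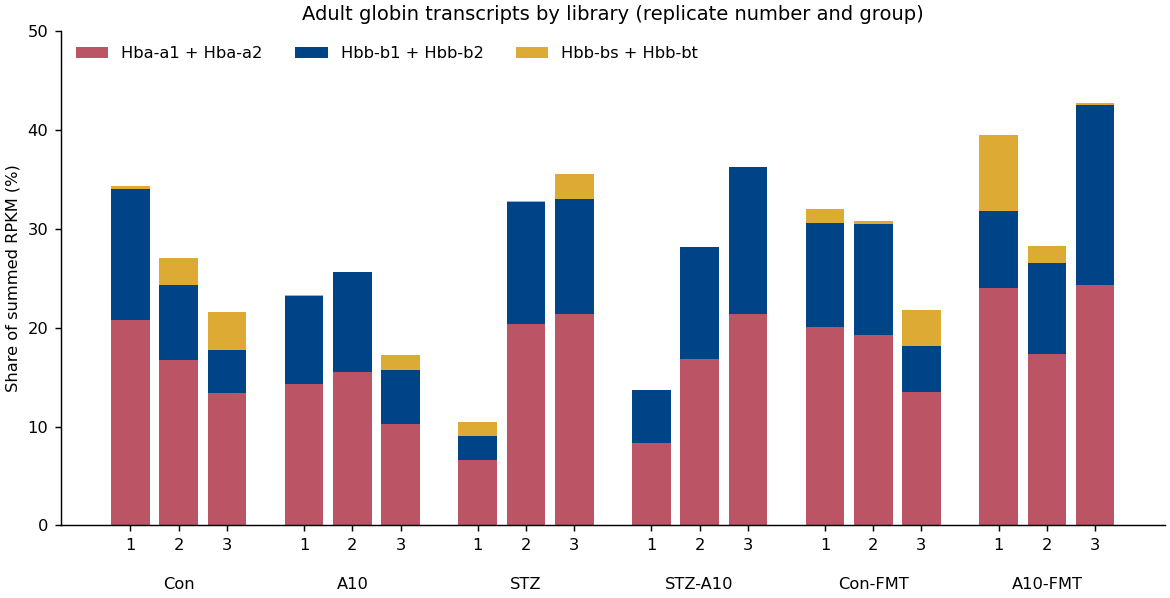
Share of summed RPKM (%, bars from 0) held by Hba-a1 with Hba-a2, by Hbb-b1 with Hbb-b2 and by Hbb-bs with Hbb-bt in each library, with replicate number and group below. The whole bar runs from 10.4% in STZ replicate 1 to 42.7% in A10-FMT replicate 3, and the top segment is widest in A10-FMT replicate 1.

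The share of Hbb-bs and Hbb-bt in adult beta-globin differed widely between libraries of a group. It was 2.04%, 26.1% and 47.3% in Con, 0.984%, 0.111% and 20.6% in A10, and 35.7%, 0.356% and 18.01% in STZ. The STZ-A10 libraries had 0.329%, 0.0269% and 0.0141%, Con-FMT 11.4%, 2.62% and 44.5%, and A10-FMT 49.5%, 16.0% and 0.750%. The other 5 groups each held a library at 20.6% or more and a library at 2.62% or less. STZ-A10 had 0.123% ± 0.178 (SD, n = 3). How reads were split between Hbb-bs or Hbb-bt and Hbb-b1 or Hbb-b2 is unknown. In 5 of the 6 groups the library with the lowest adult globin sum had the highest share, and in A10-FMT it did not. The 6 adult genes together held 27.7% ± 6.43 of the summed RPKM in Con, 22.0% ± 4.37 in A10, 26.3% ± 13.8 in STZ, 26.1% ± 11.4 in STZ-A10, 28.2% ± 5.55 in Con-FMT and 36.8% ± 7.57 in A10-FMT. RPKM divides by gene length and the globin genes are short. Weighted back by length, the shares were 9.84%, 7.47%, 9.59%, 9.35%, 10.2% and 14.5% in the same order.

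The balance of alpha to beta was far more even than any single gene. Hba-a1 made 61.0% ± 1.57 (SD, n = 18) of adult globin RPKM. The ratio of summed alpha to summed adult beta RPKM was 1.57 ± 0.101 (SD, n = 18), from 1.33 in A10-FMT replicate 3 to 1.74 in STZ replicate 1, a 1.31-fold range. Over the same libraries the adult globin sum varied 5.21-fold. Against Hbb-b1 and Hbb-b2 alone the ratio ran from 1.34 to 3.15, a 2.35-fold range, and it was highest in Con replicate 3 (3.15), A10-FMT replicate 1 (3.08), Con-FMT replicate 3 (2.93) and STZ replicate 1 (2.71). These are the 4 libraries with the largest share of Hbb-bs and Hbb-bt. The ratio to all adult beta was 1.60 ± 0.0636 (SD, n = 3) in Con, 1.54 ± 0.0509 in A10, 1.63 ± 0.118 in STZ, 1.49 ± 0.0556 in STZ-A10, 1.66 ± 0.0365 in Con-FMT and 1.49 ± 0.144 in A10-FMT.

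**Figure D3:**
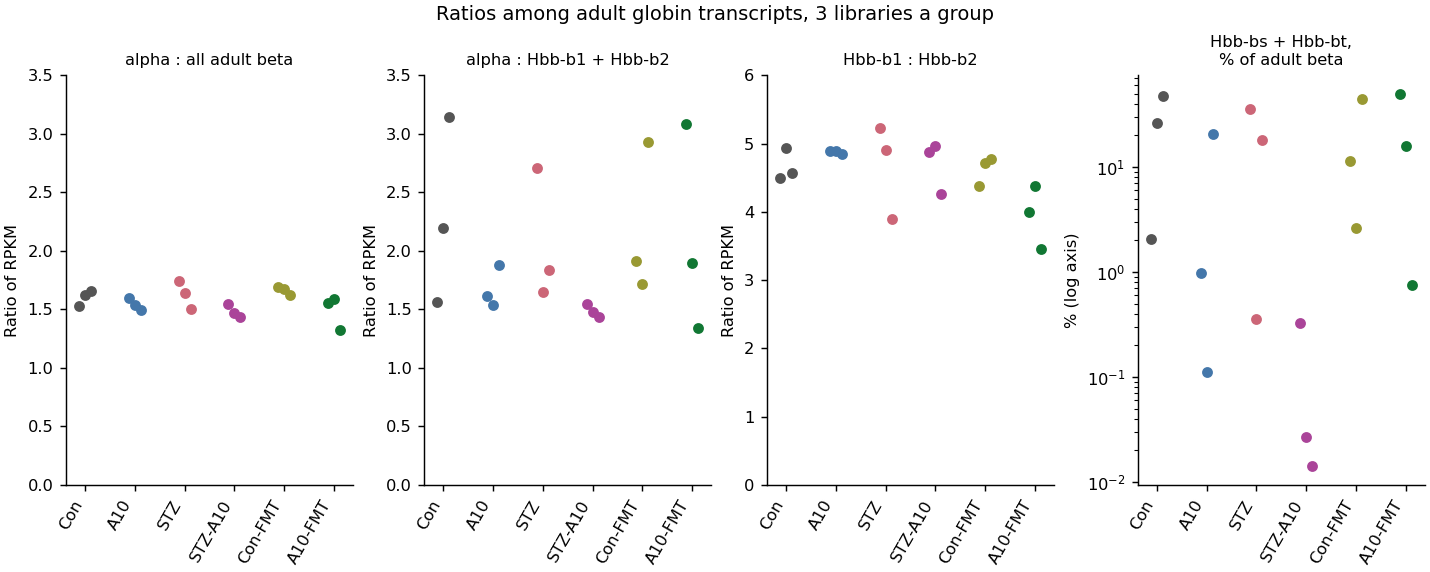
From left to right, the ratio of summed alpha to all adult beta RPKM, of alpha to Hbb-b1 with Hbb-b2, and of Hbb-b1 to Hbb-b2 (linear axes from 0), and the share of Hbb-bs with Hbb-bt in adult beta (%, log axis), 1 point a library. The first ratio stays between 1.33 and 1.74, while the share spans 0.0141% to 49.5%.

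Groups were compared with limma on log2(RPKM + 1), fitted over 12905 genes, with Benjamini-Hochberg adjustment over all of them. The 6 adult genes reached the filter of 1 RPKM in at least 3 libraries, and the 3 embryonic genes did not. A log2 fold change is the difference of mean log2(RPKM + 1), which understates the change of low genes. In each of the 6 pairs, in the test of whether AOS altered the STZ effect and in the test of any difference among groups, 0 of the 6 adult genes passed the threshold of 0.05. Before adjustment, p was under 0.05 for 2 of 6 in STZ-A10 against STZ, where 2.93% of all genes had such a p, for 1 in A10-FMT against STZ, where 17.2% had, and for 0 in the other pairs. For the adult globin sum in bulk spleen RNA, fewer red cell precursors and less globin RNA per cell cannot be told apart. For the split among the adult beta genes, the haplotype and the assignment of reads were not tested.

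STZ against Con asks what diabetes does to the spleen. Of all genes 0.163% were called, and 0 of 6 adult globin genes. Hba-a1 differed by -0.21 on the log2 scale (SE 0.495, adjusted p 0.939) and Hbb-bs by -1.46 (SE 1.91, adjusted p 0.861). Both were smaller than their standard errors, and 0 members had groups without overlap, against 12.8% of all genes. A10 against Con asks what AOS does in healthy mice. Of all genes 0.00775% were called. Hba-a1 differed by -0.39 (SE 0.495, adjusted p 0.989) and Hbb-bs by -3.73 (SE 1.91, adjusted p 0.989), with overlapping libraries for every member against 16.5% of genes without overlap. The value for Hbb-bs was -5.56 without A10 replicate 3 and -2.05 without A10 replicate 2.

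STZ-A10 against STZ asks whether AOS alters the diabetic spleen. Of all genes 0.00775% were called. Hbb-bs was 41.0 ± 53.1 RPKM (SD, n = 3) in STZ-A10 and 8091 ± 8087 in STZ. Its log2 fold change was -7.18 (SE 1.91), which is the lowest of all 12905 genes. Its unadjusted limma p was 0.00183 and its adjusted p 0.996, so the difference did not pass. Hbb-bt was 13.3 ± 6.76 and 2003 ± 1994 RPKM, and its fold change on the log2 scale was -6.03 (SE 1.70, unadjusted p 0.0029, adjusted p 0.996). These 2 of 6 members had groups without overlap, against 8% of all genes. The sum of adult beta-globin was 80943 ± 41729 in STZ-A10 and 79648 ± 46684 in STZ, and Hba-a1 differed by -0.01 (SE 0.495, adjusted p 0.999). Neither the beta-globin haplotypes of these animals nor the split of reads among the beta genes was tested. The adjusted p for any difference among the 6 groups was 0.0961 for Hbb-bs and 0.105 for Hbb-bt, where 0.449% of all genes were called. The difference of the STZ effect with and without AOS gave an adjusted p of 1.00 for every member, with 0% of all genes called by limma and 369 at p under 0.05 before adjustment.

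Transplants were compared with STZ to ask what the microbiota does in diabetic mice. In A10-FMT against STZ 0.00775% of genes were called. Hba-a2 was 86.4 ± 8.55 RPKM (SD, n = 3) in A10-FMT against 44.4 ± 22.7 in STZ, higher by 1.09 on the log2 scale (SE 0.442, unadjusted p 0.0258, adjusted p 0.267). It was the 1 member of 6 without overlap, against 14.4% of all genes. Hba-a1 differed by 0.76 (SE 0.495, adjusted p 0.392) and Hbb-bs by 1.39 (SE 1.91, adjusted p 0.668). Without STZ replicate 1 the value for Hba-a1 was 0.14. The fold changes of the 6 members had a median of 1.03, against -0.15 over all genes. Under quantile normalization Hbb-b1 turned to -0.56 in this pair and in A10-FMT against Con-FMT, and Hba-a1, first in every library, was set to 1 common value. In Con-FMT against STZ 0.00775% of genes were called and the members had a median of 0.56, against 0.00. Hba-a1 differed by 0.29 (SE 0.495, adjusted p 0.984) and Hbb-bs by 1.16 (SE 1.91, adjusted p 0.984), all members overlapped, and 13.2% of genes did not. A10-FMT against Con-FMT sets the donors against each other. Here 0% of genes were called, with 3040 at an unadjusted p under 0.05. Hba-a1 differed by 0.46 (SE 0.495, adjusted p 0.52) and Hbb-bs by 0.23 (SE 1.91, adjusted p 0.94), and 0 members were without overlap against 29.3% of genes. These 3 comparisons share the STZ, A10-FMT or Con-FMT libraries with each other.

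**Figure D4:**
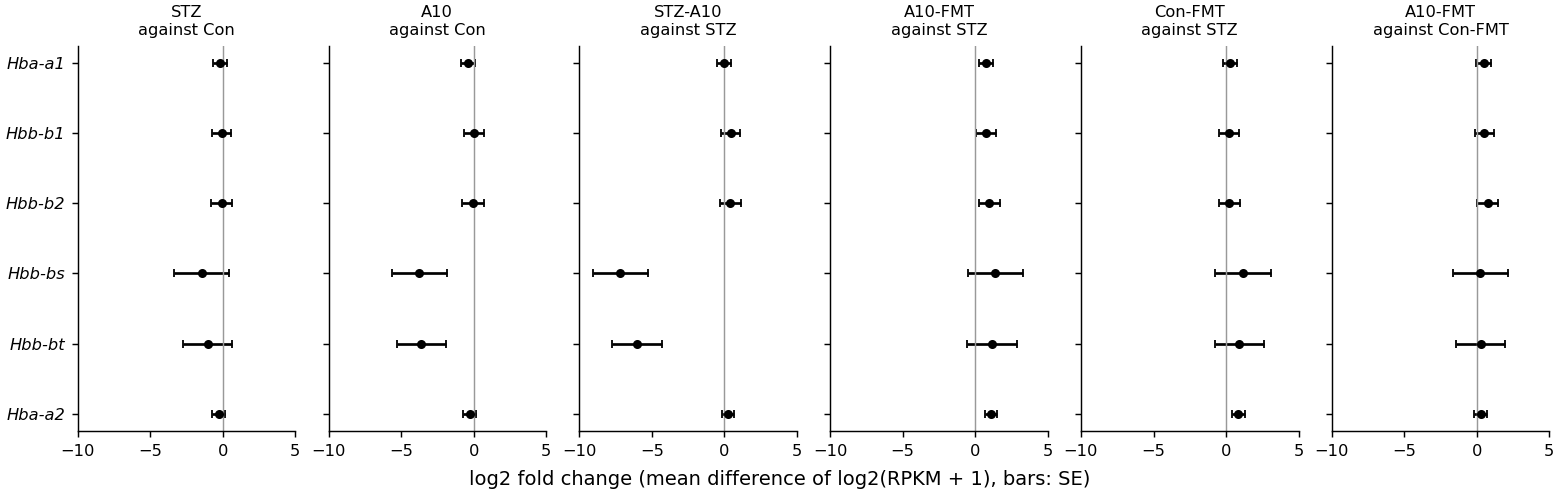
Log2 fold changes (points) with standard errors (bars) of the 6 adult globin genes in the 6 pairs of groups, from the limma fit over all genes. Hbb-bs and Hbb-bt have standard errors of 1.91 and 1.70, the other 4 between 0.442 and 0.725, and 0 of the 36 differences passed an adjusted p of 0.05.

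Of the embryonic genes, Hba-x was above 0 in 13 of 18 libraries, Hbb-y in 17 and Hbb-bh1 in 15. Their medians were 0.305, 0.295 and 0.295 RPKM. The smallest values above 0 were 0.14 or 0.15, so that the highest ones, 1.24 for Hba-x, 0.59 for Hbb-y and 1.22 for Hbb-bh1, were 8.27, 4.21 and 8.13 times the smallest step. All 3 together stood at 0.991 ± 0.558 RPKM (SD, n = 18), beside 218341 ± 83504 for the 6 adult genes. Hbb-bh1 was 1.15, 0.44 and 1.22 RPKM in A10-FMT and at most 0.44 in the other 15 libraries. Hba-x was 0, 0.45 and 1.24 in A10-FMT, and Hbb-y was 0.42, 0.14 and 0.26. STZ-A10 replicate 1 was listed at 0 for all 3. The embryonic genes stayed below the filter and were tested only in the fit without it, over 18943 genes. There 0 of their 24 limma tests passed, with a lowest adjusted p of 0.146, and 3 had an unadjusted p under 0.05, all for Hbb-bh1. Such a p was held by 2652 of the 18943 genes in A10-FMT against STZ, 3415 in A10-FMT against Con-FMT and 3678 for any difference among groups, the 3 tests concerned. On the log2 scale Hbb-bh1 differed by 0.67 (SE 0.172, adjusted p 0.173) in A10-FMT against STZ and by 0.56 (SE 0.172, adjusted p 0.267) in A10-FMT against Con-FMT.

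Other globins were low. Hbq1b, a theta-globin of the alpha cluster, ran from 15.8 to 59.7 RPKM and had r = 0.958 with the adult sum over the 18 libraries, which is given as a description. Hbq1a ran from 0.78 to 6.51 RPKM and Hbb-bh2 from 0 to 0.35. Neuroglobin (Ngb) and androglobin (Adgb) stayed at or below 0.56. Cytoglobin (Cygb), an oxygen-binding protein of fibroblast-like cells, ran from 4.26 in A10-FMT replicate 3 to 22.1 in STZ replicate 1. Myoglobin was not analysed here.

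To name the genes whose pattern was most like adult globin, Pearson's r was taken over the 18 libraries between the log2 sum of the 6 adult genes and each of 12899 other tested genes. The genes of a library are divided by the same mapped reads, and 3 libraries come from each group, so the values are a description. Among the 10 highest were Alas2 (r 0.989), Smox (0.986), Pdzk1ip1 (0.978), Rbm38 (0.977), Bpgm (0.974), Ube2o (0.972), Cdr2 (0.972), Fam214b (0.968) and Mkrn1 (0.966). Alas2 makes the first step of heme synthesis in red cells, and Bpgm makes 2,3-bisphosphoglycerate, the small molecule that lowers the oxygen affinity of hemoglobin. Alas2 was 216.96 RPKM in STZ replicate 1 and 1272 in A10-FMT replicate 3, the ends of its range. Within groups, after subtraction of group means, its r was 0.992. The 5 lowest were Gosr2 (-0.943), Rps27 (-0.931), Vps41 (-0.921), Elp3 (-0.915) and Apbb1ip (-0.914). Of 54 tested genes of red cell lists, 25 (46.3%) had an r of at least 0.9, against 128 of the 12899 (0.992%), and the median r was 0.889 against -0.47.

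**Figure D5:**
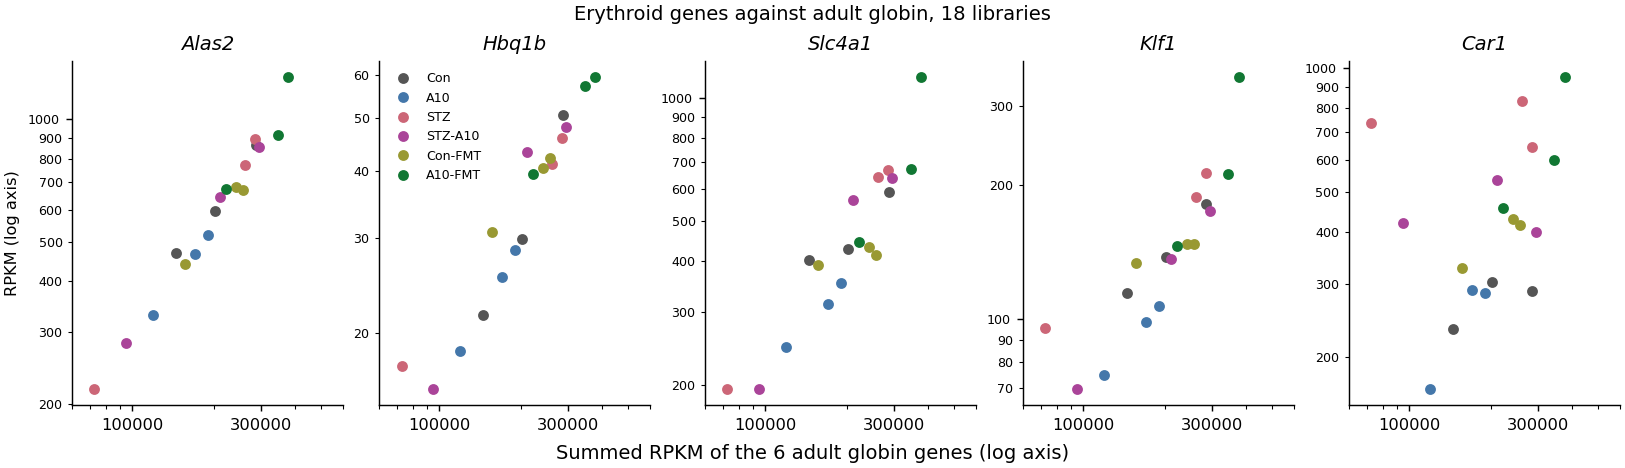
RPKM of 5 red cell genes against the summed RPKM of the 6 adult globin genes (both log axes), 1 point a library, colored by group. Alas2 and Hbq1b rise along the whole range, Slc4a1 and Klf1 follow more loosely, and Car1 has STZ replicate 1 at 734 RPKM beside the lowest globin sum.

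The adult members themselves did not all follow that sum. Hba-a1 had r = 0.999 with it over the 18 libraries, Hbb-b2 0.922, Hba-a2 0.903 and Hbb-b1 0.895, whereas Hbb-bs had -0.06 and Hbb-bt -0.000986. Within groups, after subtraction of group means, r was -0.53 for Hbb-bs and -0.43 for Hbb-bt, and between 0.915 and 0.999 for the other 4. All 6 are part of the sum. Among the red cell genes, Slc4a1 had r = 0.928, Car2 (carbonic anhydrase 2) 0.9005, Klf1 (the factor that switches on adult beta-globin) 0.879, Epor (the erythropoietin receptor) 0.878, Tfrc (the transferrin receptor that brings in iron) 0.816 and Gata1 (an erythroid transcription factor) 0.799. Other genes of the red cell lists followed the adult globin sum weakly or not, with r of 0.331 for Car1, 0.285 for Myb, -0.0568 for Zbtb7a, -0.549 for Bcl11a and -0.55 for Ldb1.

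Of the 54 tested red cell genes (13 globin partners and regulators, 15 of heme synthesis and iron entry and 26 of membrane, surface and enzymes), 1 was called in STZ against Con and 0 in the other 5 pairs, by limma with Benjamini-Hochberg adjustment. Over all genes the share called was 0.163% in STZ against Con, 0% in A10-FMT against Con-FMT and 0.00775% in each of the remaining pairs. At an unadjusted p under 0.05 the numbers were 1 in STZ against Con (11.1% of all genes), 1 in A10 against Con (5.25%), 2 in STZ-A10 against STZ (2.93%), 2 in A10-FMT against STZ (17.2%), 1 in Con-FMT against STZ (5.24%) and 7 in A10-FMT against Con-FMT (23.6%). The called gene was Car1 (carbonic anhydrase 1), which rose in STZ. It was 288, 304 and 233 RPKM in Con and 734, 829 and 643 in STZ, so the groups did not overlap. On the log2 scale Car1 differed by 1.42 (SE 0.249, adjusted p 0.0405). Over the alternatives its adjusted p ran from 0.000334 to 0.184, and the call was lost when any of 12 of the 18 libraries was left out, among them Con replicate 2, STZ replicate 1 and STZ replicate 2. With each of the 18 libraries left out in turn, its log2 fold change lay between 1.30 and 1.51. Car1 was 422, 537 and 402 RPKM in STZ-A10, 417, 431 and 328 in Con-FMT, and 600, 460 and 952 in A10-FMT.

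As a group, the red cell genes had a median log2 fold change of 0.01 in STZ against Con, against -0.01 over all genes. In A10 against Con it was -0.52 against 0.05, and the 54 ranged from -0.78 to -0.02. Here 25 of them (46.3%) had groups without overlap, against 16.5% of all genes, although 0 were called. In STZ-A10 against STZ the median was -0.21 against 0.03, and in Con-FMT against STZ -0.07 against 0.00. In A10-FMT against STZ it was 0.47 against -0.15, and in A10-FMT against Con-FMT 0.57 against -0.17. In the last pair 28 of 54 (51.9%) had groups without overlap, against 29.3% of all genes. In the other 4 pairs the list lay below all genes, with 1 (1.85%) against 12.8% in STZ against Con, 2 (3.70%) against 8% in STZ-A10 against STZ, 1 (1.85%) against 14.4% in A10-FMT against STZ and 3 (5.56%) against 13.2% in Con-FMT against STZ. These genes move together from library to library, so they are not separate observations.

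Marker sums of some other spleen cells moved with the globin level. The median r over the 12899 other tested genes was -0.47, so a negative r was not particular to these markers. Over the 18 libraries the log2 sum of 5 B cell markers had r = -0.687 with adult globin, 5 T cell markers -0.586 and 5 red pulp macrophage markers -0.568, and 6 proliferation genes 0.887. The marker sums of platelets and megakaryocytes (0.273), neutrophils (0.25), hepatocytes (0.247), exocrine pancreas (-0.00447) and testis germ cells (-0.12) followed it weakly or not. The B cell sum ran from 519 to 1762 RPKM in A10-FMT, from 1259 to 2337 in STZ, from 1438 to 2174 in STZ-A10, from 1912 to 2045 in Con-FMT, from 1358 to 2353 in Con and from 1892 to 2183 in A10, and none of the 5 was at 0 throughout. RPKM divides by the mapped reads of a library, so more globin reads leave a smaller share for other genes. Weighted by length, adult globin held 3.36% to 17.2% of a library. How much of the marker pattern follows from this was not tested. The part of cell makeup in the globin levels was not tested. Of 15 genes of red pulp macrophages and hemoglobin clearance, 0 were called in any pair, where at most 0.163% of all genes were. At an unadjusted p under 0.05 there were 6 in STZ against Con, 3 in A10 against Con, 0 in STZ-A10 against STZ, 7 in A10-FMT against STZ, 4 in Con-FMT against STZ and 3 in A10-FMT against Con-FMT, beside 11.1%, 5.25%, 2.93%, 17.2%, 5.24% and 23.6% of all genes. Their median r with adult globin was -0.05, and over the 15 genes r ran from -0.74 to 0.889.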

How the data were processed

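Poly(A)-selected RNA of 18 spleens was sequenced on an Illumina HiSeq instrument. Per the study's methods, the authors aligned reads to reference genes with SOAPaligner and turned read numbers into the deposited RPKM values. The submitters' processing notes also list Bowtie 0.12.2 and mm10, with no role stated. The annotation is not given in the sources used here. How reads that match several globin genes were counted could change each copy's level. Of 19326 lines, 6 with 3 repeated names were left out.

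The log2 values, with a pseudocount of 1, entered limma-trend (limma 3.58.1, R 4.3.3) for the 12905 genes at an RPKM of 1 in at least 3 libraries. A single model held all 18 libraries and 6 groups without covariates. P-values are two-sided with Benjamini-Hochberg adjustment, threshold 0.05. The fit was tested on simulated data. Positions and coding sequences come from GENCODE M21 (GRCm38) and promoters from RefSeq. Shares by length use GENCODE transcript lengths, found for 97.1% of symbols, with that of Hbb-bs for Hbb-b1 and Hbb-b2. The genes named are the 9 globin genes, other globins, the 10 most and the 5 least alike in pattern, and list genes past the threshold, with Slc4a1, Alas2, Klf1, Gata1, Epor, Tfrc, Car1 and Car2. Myb, Zbtb7a, Bcl11a and Ldb1 are named for their low r. The members and lists were chosen with earlier results of these data known. Alternatives were a pseudocount of 0.1, no filter, quantile normalization, globin-free scaling, fits of the compared groups, limma without trend, array weights, a replicate block and leaving out each library. Ahsp, a partner of alpha-globin, was not analysed here, and results for some genes that this rule names are not reported here.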

Additional observations from a re-analysis of the deposited data

How the results depend on the processing

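Depth is unknown, and 3 libraries a group limit what can be seen, most of all for Hbb-bs and Hbb-bt. The number of adult globin genes called was 0 in 202 of 206 recomputed counts. The exceptions came with array weights, which were estimated gene by gene because the default estimate gave a weight of 424 to A10-FMT replicate 1. There 2 were called in A10 against Con (Hbb-bs, adjusted p 0.0489, and Hbb-bt, 0.0361), 3 in A10-FMT against STZ (Hba-a2, 0.0188, Hbb-bs, 0.0158, and Hbb-bt, 0.0142), 2 in A10-FMT against Con-FMT (Hbb-bs, 0.026, and Hbb-bt, 0.0177) and 4 of 6 for any difference among the groups, by limma. Array weights also called 10.3%, 16.6%, 47% and 77.3% of all genes in these comparisons, in that order. Array weights gave the lowest adjusted p of each of these pairs of groups and genes, and the highest over the alternatives was 1 in A10 against Con and in A10-FMT against Con-FMT, and 0.756, 0.995 and 0.967 in A10-FMT against STZ. The weights were 7.37 for A10-FMT replicate 1, which has the highest Hbb-bs, and 0.112 for A10-FMT replicate 3. Of the red cell list, the 1 gene called in STZ against Con became 0 without the filter, with quantile normalization, globin-free scaling, the replicate block or the compared groups only, and 10 with array weights. Array weights called 16 of 54 in A10 against Con, 1 in A10-FMT against STZ, 7 in Con-FMT against STZ and 44 in A10-FMT against Con-FMT, beside 10.3%, 16.6%, 18.3% and 47% of all genes, and 28.8% in STZ against Con. Leaving out 1 library gave 0 to 1 in STZ against Con and 0 to 5 in A10-FMT against Con-FMT, with the 5 (of 54) without A10-FMT replicate 2, where 20.3% of all genes were called. The cause was not tested.

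Of 36 log2 fold changes of adult globin genes, 10 never turned to the opposite sign, 24 did when 1 library was left out and 15 in another alternative. Under quantile normalization Hba-a1 had 1 common value, so its differences there had no sign and were not counted as changes. With array weights Hba-a1 was -0.0509 in Con-FMT against STZ and 0.25 in STZ against Con. Hbb-b1 was -0.17 in A10-FMT against Con-FMT, -0.35 in A10-FMT against STZ, -0.18 in Con-FMT against STZ, 0.58 in STZ against Con and -0.0238 in STZ-A10 against STZ. Hbb-b2 was 0.0152 in A10 against Con, -0.12 in A10-FMT against STZ, -0.16 in Con-FMT against STZ, 0.62 in STZ against Con and -0.0474 in STZ-A10 against STZ. Globin-free scaling gave 0.00108 for Hba-a1 in STZ-A10 against STZ and -0.0167 for Hbb-b1 in A10 against Con. Quantile normalization gave -0.56 for Hbb-b1 in A10-FMT against both Con-FMT and STZ, 0.47 for Hbb-b2 in A10 against Con and -0.0808 for Hbb-bt in A10-FMT against Con-FMT.

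With 1 library left out, STZ against Con ran from -0.54 to 0.41 for Hba-a1, from -0.64 to 0.18 for Hba-a2, from -0.57 to 0.74 for Hbb-b1, from -0.57 to 0.84 for Hbb-b2, from -2.63 to 0.33 for Hbb-bs and from -2.15 to 0.64 for Hbb-bt. A10 against Con ran from -5.56 to -2.05 for Hbb-bs, from -5.26 to -2.19 for Hbb-bt, from -0.60 to 0.0333 for Hba-a2, from -0.47 to 0.50 for Hbb-b1 and from -0.52 to 0.46 for Hbb-b2. STZ-A10 against STZ ran from -0.63 to 0.44 for Hba-a1, from -0.23 to 0.72 for Hba-a2, from -0.38 to 0.91 for Hbb-b1 and from -0.48 to 0.92 for Hbb-b2. A10-FMT against STZ ran from 0.139 to 1.09 for Hba-a1, from -0.0807 to 1.18 for Hbb-b1, from -0.41 to 2.94 for Hbb-bs and from -0.50 to 2.67 for Hbb-bt. Con-FMT against STZ ran from -0.33 to 0.62 for Hba-a1, from -0.60 to 0.67 for Hbb-b1, from -0.68 to 0.72 for Hbb-b2, from -0.64 to 2.33 for Hbb-bs and from -0.76 to 2.03 for Hbb-bt. A10-FMT against Con-FMT ran from -0.0241 to 0.45 for Hba-a2, from -1.12 to 1.78 for Hbb-bs and from -1.06 to 1.77 for Hbb-bt. Without STZ replicate 1 Hba-a1 in STZ against Con was 0.41. In STZ-A10 against STZ, Hbb-bs stayed between -8.97 and -6.0 and Hbb-bt between -7.70 and -4.91.

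Weighted by gene length, the adult globin share was 9.84% in Con, 7.47% in A10, 9.59% in STZ, 9.35% in STZ-A10, 10.2% in Con-FMT and 14.5% in A10-FMT, and the alpha to beta ratio was 1.78, 1.71, 1.81, 1.65, 1.85 and 1.65. The replicate numbers are shared between groups, and 14 of 45 pairs of same-numbered libraries had deviations correlated over 0.1 (range -0.385 to 0.571). The labels do not say whether equal numbers mark shared handling, and values this mixed cannot decide it. A library correlated best with its own number in 31 of 90 cases, and 0 of 18 did so in every other group. With the replicate block 0 adult globin genes were called in every comparison, and Car1 in STZ against Con had an adjusted p of 0.0705 by limma (0.000334 to 0.184 over all alternatives). All genes called in STZ against Con went from 21 to 3.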
